A study of Homo sapiens with 9 samples.

Results

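The genes described here are 10 genes known to be imprinted, DLK1, MEG3, MEG8, H19, CDKN1C, PEG3, PEG10, NNAT, NDN and MEST, among the 25084 genes of the deposited expression table. They were chosen by symbol, and DLK1 was put first because it was among the genes with the largest decreases after HAND2 siRNA. All 10 were found in the table, 1 row each. Their values in siHAND2 against siCTR are therefore given as a description, with no p-value, and the count of members past the threshold there is printed beside that of all genes only.

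RNA sequencing of total RNA was done on LAN5, an established human neuroblastoma cell line, 72 h after siRNAs were introduced by Nucleofector electroporation. Cells received siCTR, the control siRNA, siMYCN (SiMYCN_2 in the sample titles), directed at MYCN, or siHAND2 (SiHAND2_3), directed at HAND2, and each of these 3 groups holds 3 libraries. The labels name 1 siRNA per target, so an effect of the target and an effect of that siRNA on other transcripts cannot be told apart. No label says that the 3 libraries of a group came from separate cultures, so p-values measure the spread between these libraries, which may be technical.

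An imprinted gene is transcribed mainly from the chromosome inherited from 1 parent, because a control region at the locus carries DNA methylation set in the germ line of only 1 parent. Many imprinted genes lie in clusters in which protein-coding genes and noncoding RNAs, often expressed from opposite parental chromosomes, share such a control region. DLK1, RTL1 and DIO3 are the paternally expressed coding genes of the chromosome 14 cluster, and MEG3 and MEG8 are its maternally expressed noncoding RNAs; on chromosome 11, H19 is the maternally expressed noncoding RNA beside IGF2. Many imprinted genes act in growth of the embryo and placenta, and DLK1 and H19 are both studied in neuroblastoma and the adrenal medulla. The table gives 1 value per gene and library and does not separate the parental alleles.

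All coordinates are GRCh38. RefSeq start regions (build GRCh38.p14) matched 4 of the 10 members, H19, MEG3, NDN and MEST. Those of H19 and MEG3 are shown because H19 was lower in both siRNA groups than in siCTR whereas MEG3 was higher in siMYCN. Each window runs from 250 bases before to 50 after the annotated start, 5′ to 3′ on the strand of the gene. Capitals mark every E-box CANNTG, the letters that HAND2 and MYCN, both basic helix-loop-helix proteins, bind as a class.
H19 (chr11:2001217-2001516, minus strand): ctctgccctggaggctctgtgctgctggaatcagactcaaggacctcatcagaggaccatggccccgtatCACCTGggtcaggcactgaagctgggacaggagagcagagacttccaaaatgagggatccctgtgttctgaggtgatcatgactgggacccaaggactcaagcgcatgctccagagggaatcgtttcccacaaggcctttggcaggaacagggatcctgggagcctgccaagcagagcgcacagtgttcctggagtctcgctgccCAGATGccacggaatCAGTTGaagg
MEG3 (chr14:100825858-100826157, plus strand): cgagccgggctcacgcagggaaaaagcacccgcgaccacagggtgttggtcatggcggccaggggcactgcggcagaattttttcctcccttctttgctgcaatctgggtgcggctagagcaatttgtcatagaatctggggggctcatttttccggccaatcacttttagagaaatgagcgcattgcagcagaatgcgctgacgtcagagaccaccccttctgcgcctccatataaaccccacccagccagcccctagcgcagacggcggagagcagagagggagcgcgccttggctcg

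The H19 window held 3 E-boxes, CACCTG from -180 to -175, CAGATG from 25 to 30 and CAGTTG from 40 to 45, counted with the start base as 0. The MEG3 window held none, in this or either of its other 2 annotated starts. The MEG3 row of the table begins 46.4 kb before the first of these windows, and that start was not examined. Of 35116 RefSeq promoter windows of the same length, 68.7% held at least 1 CANNTG, so a match is common. CAGATG is the reverse complement of CATCTG, a HAND-type E-box found on either strand in 14.7% of windows; CACGTG, the E-box that MYC proteins prefer, was in 7.26% and in neither window shown. The H19 window had 6 CpG dinucleotides and 57.7% G and C, the MEG3 window 19 and 59.0%. Letters in a window are a description and say nothing about binding.

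H19 is also the host transcript of the miRNA miR-675, and its mature arms are shown because H19 is their precursor. Capitals mark the seed, bases 2 to 8. Both lie inside the H19 row, at chr11:1996800-1996822 and chr11:1996768-1996787 on the minus strand, and their mature levels were not measured here.
miR-675-5p: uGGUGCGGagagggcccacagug
miR-675-3p: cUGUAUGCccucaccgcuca

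The libraries held 21.1 to 32.7 M assigned reads, as read from the smallest step of the CPM values (reads of a gene scaled to the same library total). Each targeted gene was lower with its own siRNA than with siCTR, but MYCN was lowest in siHAND2. MYCN was 1842 ± 54.2 CPM with siCTR, 1289 ± 47.0 with siMYCN and 914 ± 48.4 with siHAND2 (SD, n = 3 each). It held 70.0% of the siCTR level in siMYCN and 49.6% in siHAND2. HAND2 was 501 ± 13.7, 571 ± 15.9 and 272 ± 7.65 CPM in the same order. MYCN was thus lower in siHAND2 than in siMYCN (log2 difference -0.50, adjusted p = 6.21e-07), and its part in the siHAND2 values was not tested. Replicate 3 of siHAND2 stood farther from its group than other libraries did (chi-square per degree of freedom 11.4 and 12.4 against the other two, beside 3.53 to 7.81 for all other replicate pairs). Tests used limma on log2(CPM + 1) over the 14495 genes that reached 1 CPM in 3 or more libraries, with Benjamini-Hochberg adjusted p over all of them and a threshold of 0.05. A fold change on that scale understates the change of a gene near 1 CPM.

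DLK1 was 5.35-fold lower in siHAND2 than in siCTR, while in siMYCN it overlapped siCTR. DLK1 (14:100725705-100738224, plus strand) encodes a membrane protein of the Delta and Notch ligand family with epidermal growth factor-like repeats, shed from the surface of progenitor and neuroendocrine cells. It measured 7.67, 8.16 and 7.78 CPM with siCTR, 8.58, 7.59 and 7.78 CPM with siMYCN and 1.48, 1.23 and 1.70 CPM with siHAND2. Every siHAND2 library was below every other library, while siCTR and siMYCN overlapped. Group means came to 7.87 ± 0.256, 7.98 ± 0.524 and 1.47 ± 0.233 CPM (SD, n = 3), so siHAND2 held 18.7% of the siCTR level. On the log2(CPM + 1) scale DLK1 differed by -1.85 between siHAND2 and siCTR (standard error 0.095), rank 2 among all lower genes, and by -1.86 between siHAND2 and siMYCN; both values belong to the pattern for which it was chosen. In siMYCN against siCTR the difference was 0.02 (standard error 0.095, adjusted p = 0.915, limma), and its sign turned under median-ratio rescaling (-0.035) and quantile normalization (-0.057), and without siMYCN replicate 1 (-0.030). The siHAND2 values rest on 31 to 48 reads per library, a counting error of 14.4 to 18.0%.

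MEG3 and MEG8 rose in siMYCN, and both were lower in siHAND2. MEG3 (14:100779410-100861031, plus strand) is the long noncoding RNA of the maternal chromosome at this locus, studied as a growth suppressor. It measured 15.0, 18.9 and 17.5 CPM with siCTR, 26.2, 34.9 and 31.4 CPM with siMYCN and 12.3, 12.4 and 15.4 CPM with siHAND2. The 3 siMYCN libraries were above all others, and siHAND2 overlapped siCTR through its replicate 3. Means were 17.1 ± 1.95, 30.8 ± 4.36 and 13.4 ± 1.75 CPM (SD, n = 3). MEG3 was 1.80-fold higher in siMYCN than in siCTR, a log2 difference of 0.81 (standard error 0.10, adjusted p = 2.03e-05). In siHAND2 against siCTR the difference was -0.34, or -0.44 without siHAND2 replicate 3, and it ranged from -0.44 to -0.27 over 18 alternative analyses.

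MEG8 (14:100894770-101038859, plus strand), a noncoding host transcript of small nucleolar RNAs, measured 17.0, 17.8 and 15.6 CPM with siCTR, 23.6, 28.2 and 27.8 CPM with siMYCN and 10.1, 10.8 and 13.4 CPM with siHAND2. The 3 groups did not overlap, in the order siMYCN, siCTR, siHAND2. Its mean rose to 158.0% of siCTR in siMYCN (log2 difference 0.63, standard error 0.09, adjusted p = 7.31e-05) and was 68.1% of siCTR in siHAND2 (log2 difference -0.52, or -0.63 without siHAND2 replicate 3). The MEG8 row overlaps RTL1 on the opposite strand over 8953 bases, and MEG3 and MEG8 both overlap the row AL117190.1, so reads there may be split in a way that is not stated.

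Compared directly, siHAND2 held 43.3% of the siMYCN level of MEG3 and 43.1% of that of MEG8. The log2 differences were -1.15 for both (adjusted p = 3.4e-07 for MEG3 and 7.34e-08 for MEG8). This comparison uses the same siHAND2 libraries as the one that chose DLK1, and siMYCN against siCTR uses the same siCTR libraries, so neither is fully independent of it.

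H19 was lower in both siRNA groups than in siCTR, and lower in siHAND2 than in siMYCN. H19 (11:1995176-2001470, minus strand), the maternally expressed noncoding RNA that shares a control region with IGF2, measured 778.6, 785.2 and 608.7 CPM with siCTR, 536, 488 and 437 CPM with siMYCN and 290.6, 251 and 259 CPM with siHAND2. The groups did not overlap. The third siCTR library was lower than the other two, and gives the control mean of 724 ± 100.0 CPM its spread (SD, n = 3). H19 fell in siMYCN to 67.2% of siCTR (log2 difference -0.57, standard error 0.09, adjusted p = 0.000108), and the difference was -0.69 without siCTR replicate 3. In siHAND2 it held 36.9% of the siCTR level, a log2 difference of -1.43 and rank 16 among lower genes, and 54.9% of the siMYCN level (-0.86, adjusted p = 1.2e-06). The lowest H19 value rests on 6305 reads.

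CDKN1C (11:2883213-2885773, minus strand), a maternally expressed inhibitor of cyclin-dependent kinases from the neighbouring imprinted domain, rose in siMYCN. It measured 6.14, 6.81 and 5.03 CPM with siCTR, 9.95, 7.90 and 8.05 CPM with siMYCN and 7.53, 8.16 and 7.97 CPM with siHAND2. All libraries of both siRNA groups were above all siCTR libraries, and siMYCN and siHAND2 overlapped. The log2 difference was 0.46 in siMYCN against siCTR (standard error 0.10, adjusted p = 0.00254) and 0.35 in siHAND2 against siCTR; the 2 siRNA groups differed by -0.11 (standard error 0.10, adjusted p = 0.473). Over 18 alternatives the siHAND2 difference from siCTR ranged from 0.23 to 0.44.

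PEG3 and PEG10 went opposite ways. PEG3 (19:56810077-56840728, minus strand), a paternally expressed zinc finger protein, measured 107, 98.5 and 112 CPM with siCTR, 121, 114 and 140 CPM with siMYCN and 82.8, 83.9 and 84.9 CPM with siHAND2. The 3 groups did not overlap. PEG3 rose by 0.24 on the log2 scale in siMYCN (standard error 0.06, adjusted p = 0.00761), a call lost without siCTR replicate 2 (0.19, adjusted p = 0.0522). In siHAND2 its mean was 79.3% of siCTR (log2 difference -0.33), and the difference between siHAND2 and siMYCN was -0.57 (adjusted p = 3.62e-06). The PEG3 row shares 30652 bases with ZIM2 on the same strand, and ZIM2 was under the filter.

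PEG10 (7:94656325-94669695, plus strand), a paternally expressed gene derived from a retrotransposon, measured 121, 120.2 and 116 CPM with siCTR, 93.0, 90.8 and 94.2 CPM with siMYCN and 194, 191 and 192 CPM with siHAND2. The groups lay far apart beside their spread, the means being 119 ± 2.63, 92.7 ± 1.71 and 193 ± 1.43 CPM (SD, n = 3). PEG10 fell in siMYCN to 77.7% of siCTR (log2 difference -0.36, standard error 0.04, adjusted p = 3.45e-06) and was 161.5% of siCTR in siHAND2 (log2 difference 0.69). Between siHAND2 and siMYCN it differed by 1.05 on the log2 scale (adjusted p = 8.96e-12). Its row overlaps SGCE on the opposite strand over only 248 bases.

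MEST rose in siMYCN, though less firmly than the genes above, while NDN did not pass the threshold and NNAT was too low to test. MEST (7:130486171-130506465, plus strand), a paternally expressed member of the alpha/beta hydrolase family, measured 2.45, 1.91 and 1.33 CPM with siCTR, 3.10, 2.34 and 3.03 CPM with siMYCN and 3.26, 3.11 and 2.48 CPM with siHAND2. The siMYCN and siCTR groups overlapped. MEST rose by 0.41 on the log2 scale in siMYCN (standard error 0.14, adjusted p = 0.0322), which was lost in 7 of 17 alternatives, among them those without siCTR replicate 2 or 3 and without siMYCN replicate 1 or 3. It was 0.46 higher in siHAND2 than in siCTR (0.21 to 0.64 over 17 alternatives), and differed by 0.05 between the 2 siRNA groups (adjusted p = 0.841).

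NDN (15:23685400-23687305, minus strand), a paternally expressed MAGE-family protein of the Prader-Willi region, measured 5.20, 5.05 and 5.03 CPM with siCTR, 6.20, 5.98 and 6.17 CPM with siMYCN and 5.43, 6.45 and 5.46 CPM with siHAND2. It did not pass the threshold in siMYCN (0.22, standard error 0.087, adjusted p = 0.0545), and passed it in 5 of 18 alternatives; in siHAND2 the difference from siCTR was 0.15. NNAT (20:37521206-37523690, plus strand), a paternally expressed membrane proteolipid of neurons, was under the filter and has no test: it measured 0.245, 0.524 and 0.475 CPM with siCTR, 0.806, 0.844 and 0.720 CPM with siMYCN and 0.559, 0.478 and 0.602 CPM with siHAND2, on 8 to 22 reads per library. All 3 siMYCN libraries were above all others. The NNAT row lies wholly within that of BLCAP on the opposite strand, over 2485 bases, and how the counting used strand is not stated.

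**Figure D1:**
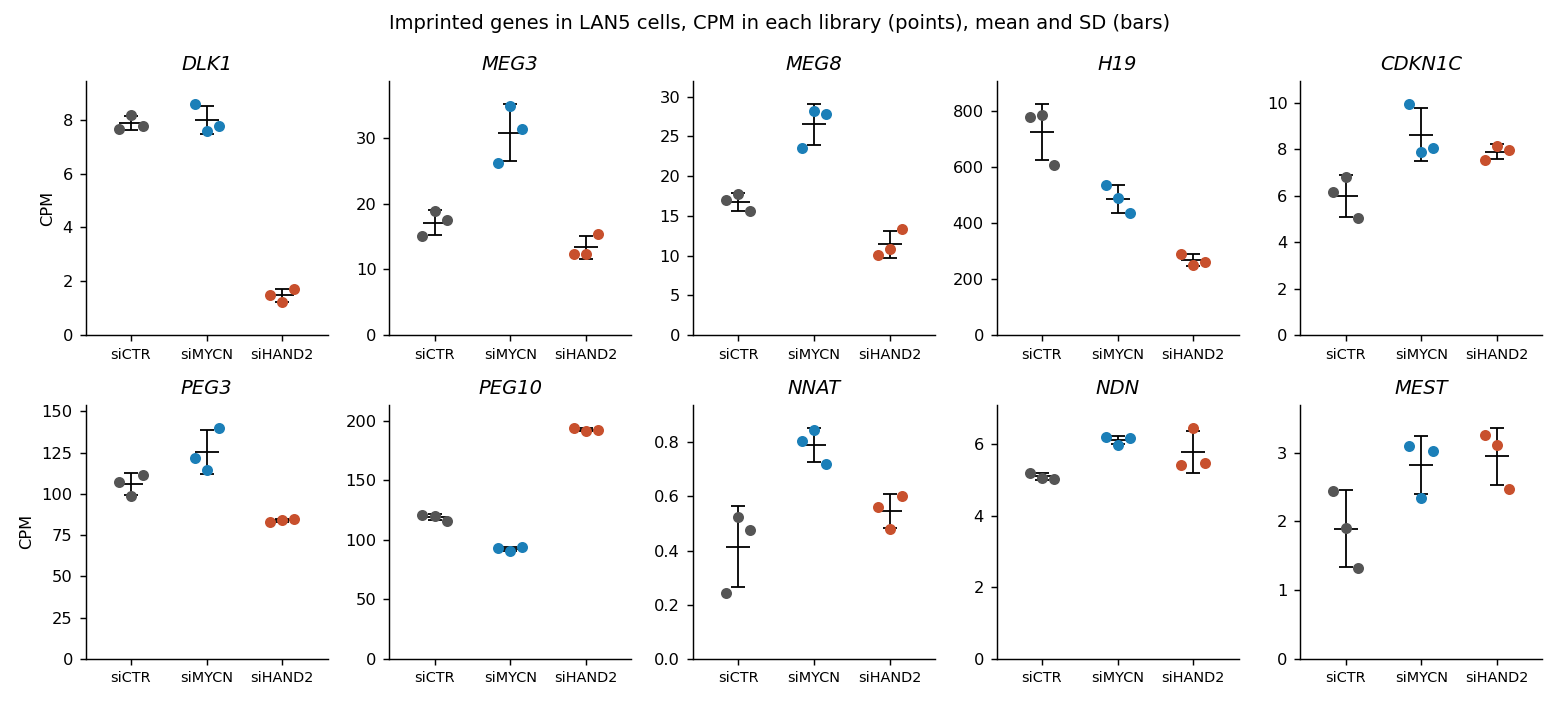
CPM (linear axis from 0) of the 10 imprinted genes in each library; points are libraries, horizontal bars the group means and vertical bars the SD (n = 3). DLK1 is low only in siHAND2 (1.23 to 1.70 CPM), H19 steps down from siCTR to siMYCN to siHAND2, and PEG10 is highest in siHAND2.

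Counted over the 9 tested members, 7 passed the threshold in siMYCN against siCTR, 5 higher (MEG3, MEG8, CDKN1C, PEG3 and MEST) and 2 lower (H19 and PEG10), where 35.9% of all genes tested passed it, 24.5% higher and 11.4% lower. In siHAND2 against siCTR 8 were past it, 3 higher (CDKN1C, PEG10 and MEST) and 5 lower (DLK1, MEG3, MEG8, H19 and PEG3), where 29.9% of all genes were, 18.1% higher and 11.8% lower; since that contrast chose DLK1, nothing is read from the count, which was 5 without siCTR replicate 3 and 5 without siHAND2 replicate 2. In siHAND2 against siMYCN 6 passed, 1 higher (PEG10) and 5 lower, where 26.9% of all genes did, 11.4% higher and 15.5% lower. DLK1 is among the 5 lower and was chosen from these siHAND2 libraries, so nothing is read from this count either. The shares of called genes that were higher depend on scaling: 68.3% of the calls in siMYCN against siCTR, but 51.2% with median-ratio rescaling and 49.3% with quantile normalization, and likewise 60.6%, 47.1% and 47.8% in siHAND2 against siCTR. NNAT, below the filter, is in none of these counts. The median log2 difference of the tested members was 0.24 in siMYCN against siCTR, beside 0.06 for all genes, and the median size regardless of sign was 0.41 beside 0.14. In siHAND2 against siCTR these were -0.33 beside 0.04, and 0.46 beside 0.12. The siHAND2 medians include DLK1, which that contrast chose, and nothing is read from them.

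**Figure D2:**
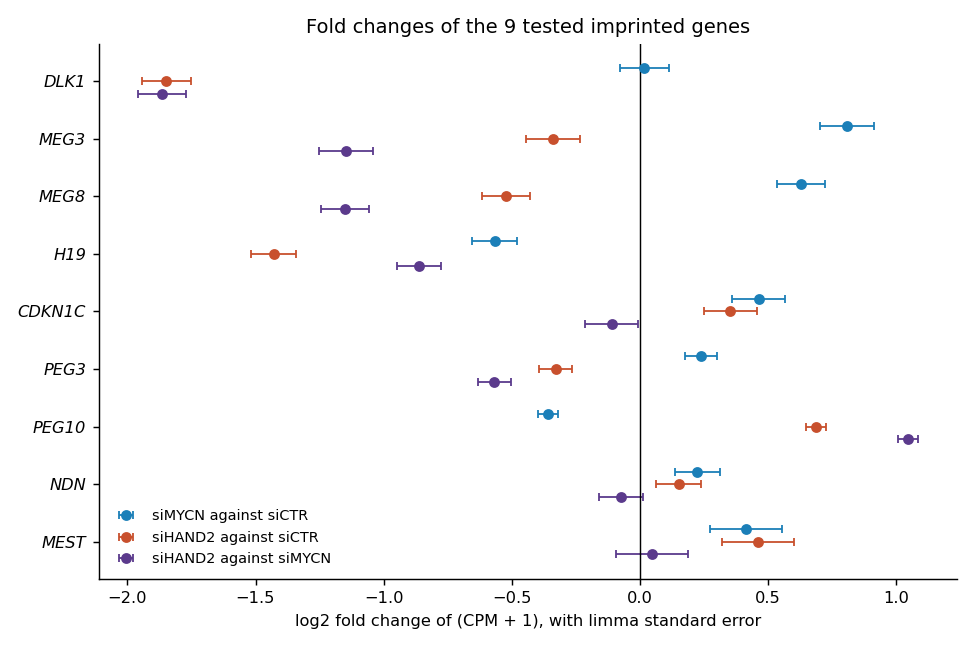
Log2 fold changes on the (CPM + 1) scale of the 9 tested imprinted genes, with limma standard errors as horizontal bars, for siMYCN against siCTR (blue), siHAND2 against siCTR (orange) and siHAND2 against siMYCN (purple). DLK1 has the lowest value in siHAND2 against siCTR (-1.85), MEG3 the highest in siMYCN against siCTR (0.81), and PEG10 lies at -0.36 and 0.69 in those contrasts.

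The bulk values cannot tell fewer cells of a type from less RNA per cell. Of 10 fibroblast and mesenchymal marker genes, 8 were in the table and 7 were tested. Their summed level was 289 to 293 CPM with siCTR, 348 to 350 in siMYCN and 618 to 702 in siHAND2. In siMYCN against siCTR 6 were higher and none lower, where 24.5% of all genes were higher and 11.4% lower. In siHAND2 against siCTR 6 were higher and 1 (THY1, lost in 5 of 18 alternatives) lower, where 18.1% of all genes were higher and 11.8% lower. The mean of COL3A1 was 1.42 CPM with siCTR, 4.19 with siMYCN and 3.84 with siHAND2. Between siCTR and siHAND2 the mean of DCN, a matrix proteoglycan, went from 0.431 to 11.02 CPM, that of LUM, another, from 9.15 to 54.7 CPM, that of COL6A3 from 2.20 to 14.4 CPM and that of PDGFRA, a growth factor receptor, from 121 to 341 CPM, while COL1A1 was at 0.279 to 0.936 CPM in every library and was not tested. Markers of Schwann cells summed to 2.06 to 3.34 CPM and those of immune and endothelial cells to 0.936 to 1.83 CPM in every library, with none tested. The 11 sympathoadrenal markers in the table summed to 2795 to 2952 CPM with siCTR, 3495 to 3615 in siMYCN and 3291 to 3506 in siHAND2. Of these 11, 9 rose and none fell in siMYCN, where 24.5% of all genes were higher and 11.4% lower. In siHAND2 4 rose, 2 fell and 5 did not pass, where 18.1% of all genes were higher and 11.8% lower. SCG2 (160 to 489 CPM, mean of siCTR and of siHAND2) and STMN2 (177 to 343 CPM) added most to the siHAND2 sum. The 2 that fell were DBH (263 to 130 CPM) and TH (2.95 to 1.43 CPM). The part of these shifts in the values of the imprinted genes was not tested.

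At the chromosome 14 cluster DIO3 and BEGAIN rose in siMYCN and fell in siHAND2. DIO3 (14:101561351-101563452), the deiodinase that inactivates thyroid hormone and the distal paternally expressed gene of the cluster, 835.6 kb from DLK1, measured 5.62, 5.69 and 5.31 CPM with siCTR, 8.05, 8.32 and 7.85 CPM with siMYCN and 0.822, 0.996 and 0.815 CPM with siHAND2. The groups did not overlap. DIO3 rose by 0.47 on the log2 scale in siMYCN (adjusted p = 0.000817) and fell by 1.80 in siHAND2 (adjusted p = 4.3e-10), rank 3 among lower genes, next after DLK1. In that contrast siHAND2 held 15.8% of the siCTR level of DIO3.

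RTL1, a paternally expressed capsid-like gene that lies antisense to transcripts of the MEG3 strand, had means of 1.44 ± 0.180, 2.17 ± 0.855 and 0.758 ± 0.114 CPM across siCTR, siMYCN and siHAND2 (SD, n = 3). Its siHAND2 libraries were below all siCTR libraries, with a log2 difference of -0.48 (adjusted p = 0.043) that was lost in 10 of 18 alternatives, including those without any 1 of the siCTR libraries and without siMYCN replicate 2 or siHAND2 replicate 2 or 3. In siMYCN it did not pass the threshold (0.34, adjusted p = 0.132). MEG9, a further noncoding RNA of the cluster, was under the filter, with means of 0.372, 0.744 and 0.234 CPM.

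BEGAIN, which encodes a protein of synaptic scaffolds and lies at -188.6 kb from DLK1, rose in siMYCN (0.49, adjusted p = 1.05e-05) and fell in siHAND2 (-0.80, adjusted p = 4.79e-08). Its libraries ranged over 24.9 to 26.2 CPM with siCTR, 35.8 to 36.7 in siMYCN and 13.2 to 15.0 in siHAND2, with no overlap. The next tested genes, WDR25 and WARS1, rose in siMYCN (0.28, adjusted p = 0.0104, and 0.22, adjusted p = 0.00302) and did not pass the threshold in siHAND2 (-0.10 and -0.03). YY1, at -487.4 kb, passed it in neither contrast (0.07 and 0.03). Of the 10 genes tested within 500 kb of DLK1, MEG3 and MEG8 among them, 6 rose and none fell in siMYCN, where 24.5% and 11.4% of all genes did. In siHAND2 against siCTR 1 (SLC25A29, named after its values were seen) was higher and 4 (MEG3, MEG8, RTL1 and BEGAIN) lower, where 18.1% and 11.8% of all genes were. That count of 5 was 2 without siCTR replicate 2 or 3 or siHAND2 replicate 2, and 3 without siCTR replicate 1, siMYCN replicate 2 or siHAND2 replicate 1. SLC25A29 was lost in 13 of 18 alternatives and MEG3 in 5, and MEG8 and BEGAIN in none. RTL1 was lost when any 1 of the siCTR libraries was left out, among other alternatives.

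At the chromosome 11 cluster IGF2, the paternally expressed growth factor beside H19, measured 2.32, 2.56 and 2.09 CPM with siCTR, 1.53, 1.45 and 2.08 CPM with siMYCN and 0.625, 0.298 and 0.743 CPM with siHAND2. It fell in siHAND2 (log2 difference -1.10, adjusted p = 1.55e-05) and did not pass the threshold in siMYCN (-0.31, adjusted p = 0.0941). H19 and IGF2, expressed from opposite parental chromosomes, were thus both lower in siHAND2. KCNQ1OT1, the noncoding RNA of the CDKN1C domain, passed in neither contrast (-0.17, adjusted p = 0.478, and 0.28, adjusted p = 0.248); its row overlaps KCNQ1.

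Around PEG10 the paired gene SGCE, which encodes a sarcoglycan and starts beside PEG10 on the other strand, had means of 20.5 ± 0.446, 22.4 ± 2.40 and 33.2 ± 2.72 CPM across siCTR, siMYCN and siHAND2 (SD, n = 3). It rose in siHAND2 (log2 difference 0.66, adjusted p = 5.57e-06), where PEG10 was 0.69 higher. In siMYCN, where PEG10 fell, SGCE did not pass the threshold (0.11, adjusted p = 0.268). All 4 tested neighbours of PEG10 passed as higher in siHAND2, where 18.1% of all genes did. That count was 3 without any 1 of the siCTR or siHAND2 libraries, or without siMYCN replicate 1 or 2. The call lost was that of PPP1R9A (0.24, adjusted p = 0.0491), lost in 13 of 18 alternatives. COL1A2 and CASD1, named after their values were seen, were 2.67 and 0.45 higher, COL1A2 being a collagen gene outside the imprinted set.

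Around PEG3, MIMT1, a noncoding RNA that starts beside PEG3 on the other strand (also named after its values were seen), measured 3.94, 4.08 and 4.51 CPM with siCTR, 3.79, 4.45 and 3.56 CPM with siMYCN and 2.37, 2.51 and 2.59 CPM with siHAND2. It was lower in siHAND2 (-0.57, adjusted p = 0.000445) and overlapped siCTR in siMYCN (-0.07). Over the neighbourhoods of all 10 members together, 65 further genes were tested within 500 kb. Of these, 33.8% passed in siMYCN against siCTR and 30.8% in siHAND2 against siCTR, beside 35.9% and 29.9% of all genes. The second count, 20 genes, was 11 without siCTR replicate 1, 10 without siCTR replicate 2 and 12 without siHAND2 replicate 2.

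**Figure D3:**
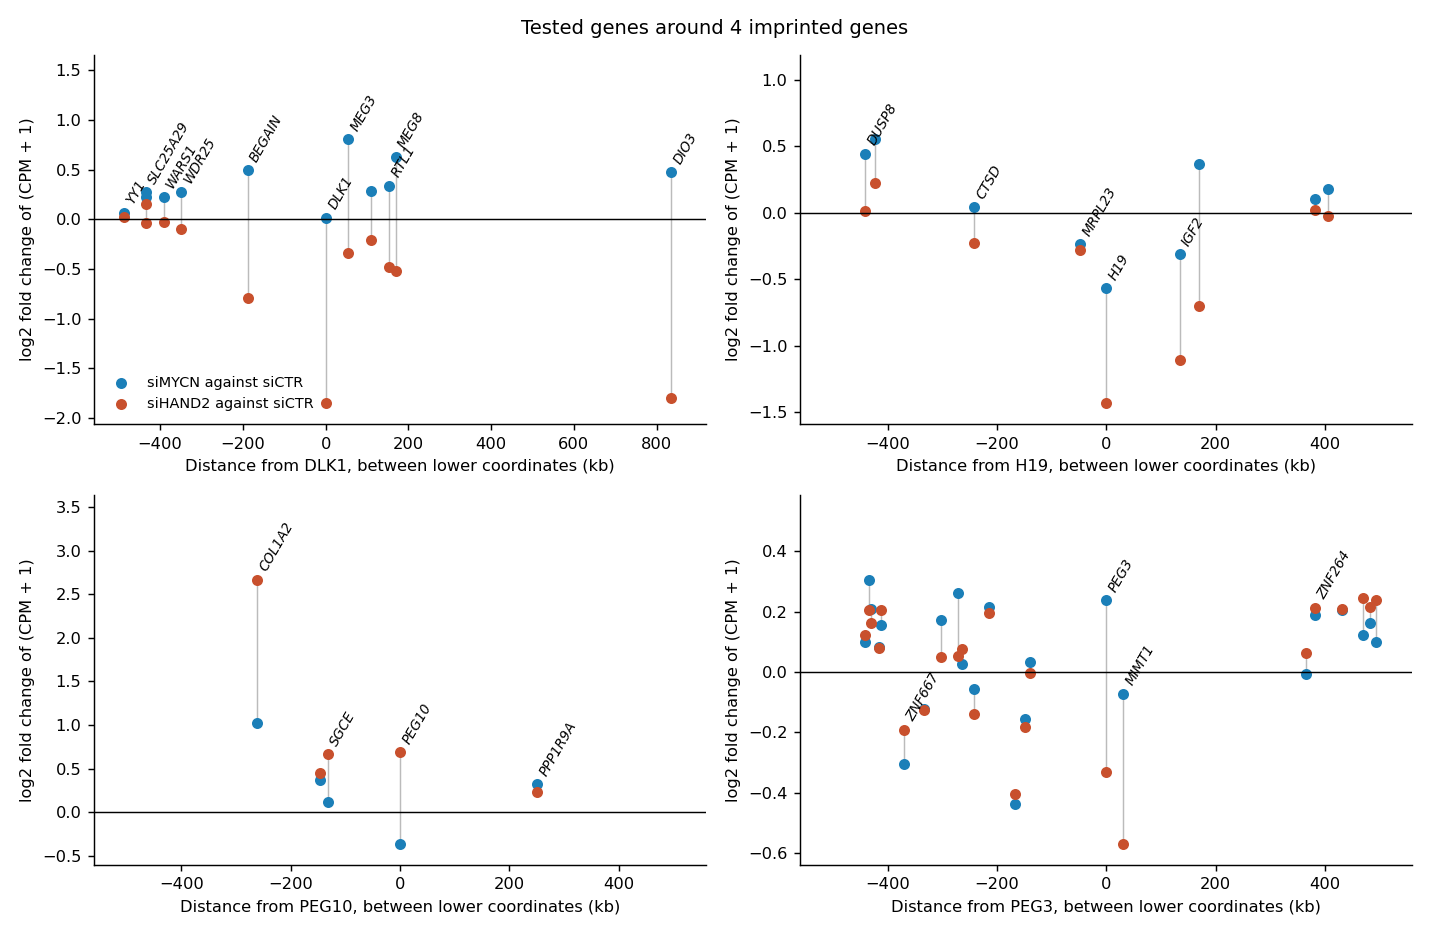
Log2 fold changes on the (CPM + 1) scale of the tested genes within 500 kb of DLK1, H19, PEG10 and PEG3, with DIO3 added, against distance in kb between the lower coordinates of the 2 genes, for siMYCN (blue) and siHAND2 (orange) against siCTR; grey lines join the values of 1 gene. Around DLK1, BEGAIN, MEG3, RTL1, MEG8 and DIO3 lie above 0 in blue and below 0 in orange, while YY1 is near 0 in both.

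**Figure D4:**
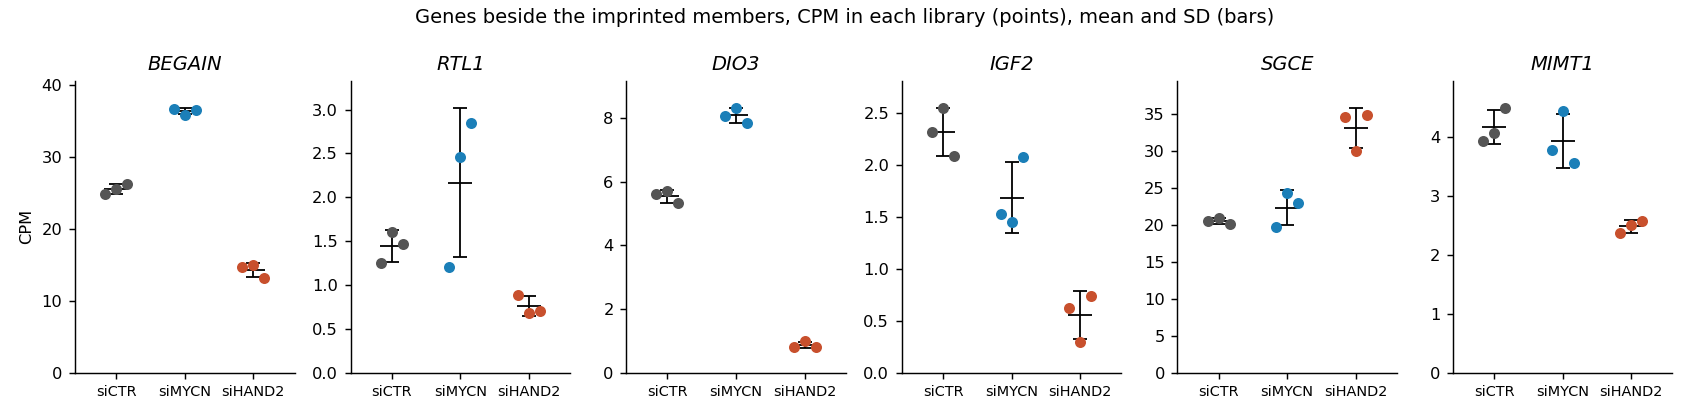
CPM (linear axis from 0) in each library of BEGAIN, RTL1, DIO3, IGF2, SGCE and MIMT1, drawn as points with group mean and SD (n = 3). DIO3 falls from 5.54 CPM in siCTR to 0.878 CPM with siHAND2 and SGCE rises from 20.5 to 33.2 CPM, while IGF2 and RTL1 stay under 3 CPM.

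Other imprinted genes were compared from a list. Of 70 listed, 47 were in the table and 34 were tested. In siMYCN against siCTR 12 rose and none fell, with a median log2 difference of 0.12, where 24.5% of all genes were higher and 11.4% lower. In siHAND2 against siCTR 7 rose and 6 fell (median 0.07), where 18.1% of all genes were higher and 11.8% lower; this is a count of 13 that was 8 without siCTR replicate 1 and 8 without siHAND2 replicate 2. In siHAND2 against siMYCN 2 (SGCE and MAGI2) were higher and 12 lower, where 11.4% of all genes were higher and 15.5% lower. With a filter of 5 CPM, which removed PEG13, KCNK9, IGF2, RTL1 and MIMT1 from testing, 9 in all passed. The MAGI2 call in siHAND2 against siMYCN was lost in 4 of 18 alternatives, among them those without siMYCN replicate 1 or 2 and without siHAND2 replicate 2.

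The largest rises among these in siMYCN, at a mean of at least 5 CPM, were NAP1L5, a nucleosome assembly protein (0.64, adjusted p = 1.02e-06), BLCAP, the gene around NNAT (0.46, adjusted p = 2.08e-05), and OSBPL5, a lipid transfer protein (0.40, adjusted p = 0.00077). INPP5F, a phosphoinositide phosphatase, rose by 0.38, PPP1R9A, an actin-binding synaptic protein, by 0.32 and DDC, an amino acid decarboxylase, by 0.30. In siHAND2 the largest rises after SGCE, with the same minimum of 5 CPM, were NAP1L5 (0.49, adjusted p = 1.26e-05) and MAGI2, a synaptic scaffold (0.31, adjusted p = 0.00751). With that minimum only DDC fell (-0.25, adjusted p = 0.000121). PPP1R9A (0.24) and SNHG14, the noncoding host RNA of the Prader-Willi region (0.22), passed too, but lost the call in 13 and 7 of 18 alternatives. SNRPN of that region rose by 0.13 in siMYCN, lost in 7 of 18 alternatives, and by 0.15 in siHAND2, lost in 4 of 18. The other called falls in siHAND2, all at a mean under 5 CPM, were larger than that of DDC. They were DIO3 (-1.802), IGF2 (-1.103), KCNK9 (-1.001), MIMT1 (-0.569) and RTL1 (-0.475). KCNK9, named after its values were seen, kept its call in all 17 alternatives. RTL1 lost its call when any 1 of the siCTR libraries was left out, among other alternatives. PLAGL1 was under the filter.

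Genes related by family or by function were compared from lists. Of 26 relatives of the members (Delta-like and MAGE-family genes, cell cycle inhibitors and retrotransposon-derived genes), 20 were tested; 8 rose and none fell in siMYCN, and 5 rose and 3 (RTL1, DLK2 and JAG2) fell in siHAND2, where 35.9% and 29.9% of all genes passed. The 8 calls in siHAND2 were 5 without siCTR replicate 2 and 5 without siHAND2 replicate 2; JAG2 was lost in 5 of 18 alternatives and CDKN1B, among the 5 that rose, in 10 (JAG2 and CDKN1B are named after their values were seen). The MAGE relatives MAGED2 and MAGED4 rose in both (0.62 and 0.47 in siMYCN, 0.43 and 0.41 in siHAND2), RTL5 and MAGED1 rose in siMYCN (0.45 and 0.33), and DLK2, the closest relative of DLK1, fell in siHAND2 (-0.40, adjusted p = 0.00654) and differed by 0.03 in siMYCN. Of 16 factors that keep or read imprints, 13 were tested; 6 rose and 1 (SETDB1, named after its values were seen) fell in siMYCN, and 5 rose and none fell in siHAND2, where 35.9% and 29.9% of all genes passed. The 7 calls in siMYCN were 4 without siCTR replicate 2 and 4 without siMYCN replicate 1, and the 5 in siHAND2 were 2 without siCTR replicate 2. The fall of SETDB1 was lost in 9 of 18 alternatives. DNMT3A, which methylates DNA anew, rose by 0.25 and 0.50 (adjusted p = 0.000769 and 8.24e-07), ZNF445, which binds imprinting control regions, by 0.21 and 0.19, and ARID4A by 0.33 and 0.18, the second lost in 5 of 18 alternatives. ARID4B rose by 0.26 in siMYCN and by 0.15 in siHAND2, the second lost in 4 of 18 alternatives. CTCF, the insulator protein of the H19 control region, rose by 0.14 in siMYCN, lost in 7 of 18 alternatives. In siHAND2 CTCF rose by 0.17, lost in 4 of 18.

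Across the 9 libraries the members formed no single pattern. Pearson r of log2(CPM + 1) was 0.968 for MEG3 with MEG8, 0.897 for DLK1 with H19, 0.703 for DLK1 with MEG3 and -0.938 for DLK1 with PEG10. These libraries share 3 group means, so the coefficients mainly rank group patterns. By the same measure over 11200 genes of at least 5 CPM, the genes most like DLK1 were NELL2 (0.994), GALNT6 (0.993), SFXN3, MCC and GPR158 (each 0.992), all lower in siHAND2 and near the siCTR level in siMYCN. Those most like MEG3 were SNAP25 (0.985), MPP6 (0.979), VIP (0.975), PDE9A (0.974) and TUSC3 (0.973). The mean of VIP, a neuropeptide, was 857 CPM with siCTR, 1148 in siMYCN and 746 in siHAND2.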

How the data were processed

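The authors deposited 1 table of CPM values (reads of a gene scaled to the same library total), with 1 column per library. Per the submitters' processing notes, STAR 2.5.1 and Partek were used with hg19 and GRCh37. The coordinates in the table did not match that build: of 18215 symbols found in RefSeq GRCh38.p14, 91.4% had a start within 5000 bases, against 5.62% of 18635 in a GRCh37 annotation, so GRCh38 is given as their build (1-based, end set to the base before the listed stop). The counting rule and its use of strand are not given in the sources used here. Every value holds a constant of 1e-04.

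From the CPM values, log2(CPM + 1) was tested with limma 3.58.1 in R 4.3.3 (1 fit of all 9 libraries, intensity trend, two-sided, Benjamini-Hochberg adjusted p over all genes tested, threshold 0.05). Genes needed at least 1 CPM in at least 3 of 9 libraries, which kept 14495 and left out 10589. Depth came from the smallest CPM step; 79.1 to 80.6% of low values were whole steps within 0.02 of a step, so no count model was applied. In data simulated for siMYCN against siCTR, 92.5% of 200 genes changed by 0.5 on the log2 scale were recovered, among 14385 genes tested. Of 200 changed by 1, 100% were recovered, among 14415. Unchanged genes called numbered 15 and 11, in that order. The rates hold for the simulated spread only. None was worked out for genes of low CPM, so they say nothing about MEST, IGF2, RTL1 or DIO3 in siHAND2.

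The members and the gene lists were chosen with earlier results of these data known. Named were all members, the 2 targeted genes, among other imprinted genes up to 6 with the largest called change at 5 CPM or more plus a fixed set, the 4 nearest called neighbours of DLK1 and MEG3, up to 4 relatives and 4 maintenance factors, and 5 genes most like DLK1 and MEG3. Alternatives were other pseudocounts, filters, scalings and fits, a replicate block, and leaving out each library.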

Additional observations from a re-analysis of the deposited data

How the results depend on the processing

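Over 18 alternatives (17 where a filter removed the gene), no tested member changed sign in siHAND2 against siCTR. DLK1 in siMYCN against siCTR was -0.035 with median-ratio rescaling and -0.057 with quantile normalization, and ranged from -0.030 to 0.048 when 1 library was left out. MEST in siHAND2 against siMYCN ranged from -0.048 to 0.136 when 1 library was left out. The number of members called in siHAND2 against siCTR ranged from 5 to 8 when 1 library was left out, and that of other imprinted genes from 8 to 13. A filter of 5 CPM left 9 other imprinted genes called in siHAND2 against siMYCN, beside 14. It removed PEG13, KCNK9, IGF2, RTL1 and MIMT1 from testing, all of them called with the main filter. For the other values the cause was not tested. With a replicate block, the members called numbered 7 for siMYCN and 8 for siHAND2 (each against siCTR) and 6 between the 2 siRNAs, as without it, and the other imprinted genes called 15, 15 and 17. Deviations of libraries with the same number correlated at -0.04 to 0.305 (median 0.166), over 0.1 in 6 of 9 pairs. Those of libraries with different numbers correlated at -0.296 to 0.141 (median -0.0715), over 0.1 in 2 of 18 pairs. With the block, 5895 genes passed in siMYCN against siCTR, 5089 in siHAND2 against siCTR and 4689 between the 2 siRNAs. Without it these were 5209, 4339 and 3892. No label says that the numbers pair the libraries. The main fit did not pair them, and a shared effect of the number was not tested. Depth limits NNAT (8 to 22 reads), MEST (28.0 reads in the lowest siCTR library) and DLK1 in siHAND2 (31 to 48 reads). It also limits IGF2, RTL1 and DIO3 in siHAND2, all lower than DLK1 there (lowest library 0.298, 0.677 and 0.815 CPM).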
